A study of Mus musculus with 6 samples.

Results

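The nuclear genes for the subunits of oxidative phosphorylation were followed in mouse embryonic stem (ES) cells after knockdown of the long noncoding RNA Panct1. Members were the genes whose symbol starts with Nduf followed by a subunit letter and a digit, is Sdha to Sdhd, or starts with Uqcr, Cox4 to Cox8 or Atp5. This gave 81 of 18193 genes measured, with 35 named for complex I, 4 for complex II, 8 for complex III, 17 for complex IV and 17 for ATP synthase (complex V). The symbols chose them, not their values. All 6 arrays came from Oct4-Gip ES cells, which carry a fluorescent protein and a drug resistance gene under the control of Oct4 regulatory DNA, grown in serum with LIF. In both groups 60000 cells received 800 ng of esiRNA, an enzyme-cut pool of short double-stranded RNAs, and RNA was taken after 72 hours. The 3 knockdown samples received esiRNA against Panct1, and the 3 control samples received esiRNA against Luciferase, which mouse cells lack. The labels do not state that replicates were separate cultures, so p-values reflect only how much these samples varied, which could be technical variation. They also do not say whether the cells are a single clone.

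The respiratory chain of the inner mitochondrial membrane passes electrons from NADH (complex I) and succinate (complex II) through ubiquinone to complex III, then through cytochrome c to complex IV and oxygen. Complexes I, III and IV pump protons, and ATP synthase lets them flow back to make ATP. Subunits of complexes I, III, IV and V are encoded in the nucleus and in mitochondrial DNA, and those of complex II in the nucleus alone. ES cells draw on glycolysis as well as on respiration. The mitochondrially encoded subunits were not analysed here.

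Values are log2 signals, so that a difference of 1 is a doubling, and the signal of a probe set is not compared with that of another as an amount of RNA. Medians of the arrays lay between 6.07 and 6.09 and their lower quartiles between 4.65 and 4.70, while arrays correlated at 0.997 to 0.998 within a group and at 0.991 to 0.993 between groups. No probe set is named as Panct1, so the depletion itself was not assessed. All 10 ES cell markers looked at were measured and none lay below the lower quartile of all arrays. Their mean signal ranged from 12.61 to 12.70 on control arrays and from 12.38 to 12.41 on knockdown arrays, and 6 of 10 fell. Of 10 trophectoderm markers, those of the outer blastocyst layer, 8 rose and their mean signal went from 7.52 to 7.61 up to 8.72 to 8.74, with Elf5 below the lower quartile on all arrays. Of 9 fibroblast markers, which would mark feeder cells, 2 rose (Col1a1 and Col3a1), with a mean signal of 5.52 to 5.62 in controls and 5.66 to 5.67 in knockdown and with Fap and Lum below the lower quartile. The part of these marker shifts in the subunit results was not tested. In such bulk samples, fewer cells of a type and less RNA per cell cannot be told apart. The 3' minus 5' signal of the Gapdh control sets, a sign of RNA integrity, was -0.14 to -0.12 in controls and -0.13 to -0.10 in knockdown, and for Actb the ranges were 0.22 to 0.28 and 0.22 to 0.26.

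Most subunit genes did not pass the test, and those that did were, with 1 exception, lower in the knockdown. Of the 81 members, 15 fell (18.5%) and 1 rose (1.23%) by limma at an adjusted p under 0.05 over all genes, where 11.3% of all genes fell and 12.9% rose (24.2% in all). The falls were 1.15-fold to 1.35-fold, and no member changed by 0.5 or more on the log2 scale, a size that 1606 of all called genes reached. The differences of 63 members lay below 0, 17 above and 1 at 0, with a median of -0.07, beside a median of -0.02 and 53.7% below 0 over all genes. Members are mostly bright, 69 of them with a mean signal of at least 11. Among the 1788 genes of that brightness, 14.8% fell and 10.4% rose (25.2% in all), with a median of -0.02, and among the 69 bright members 17.4% fell and 1.45% rose.

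**Figure D1:**
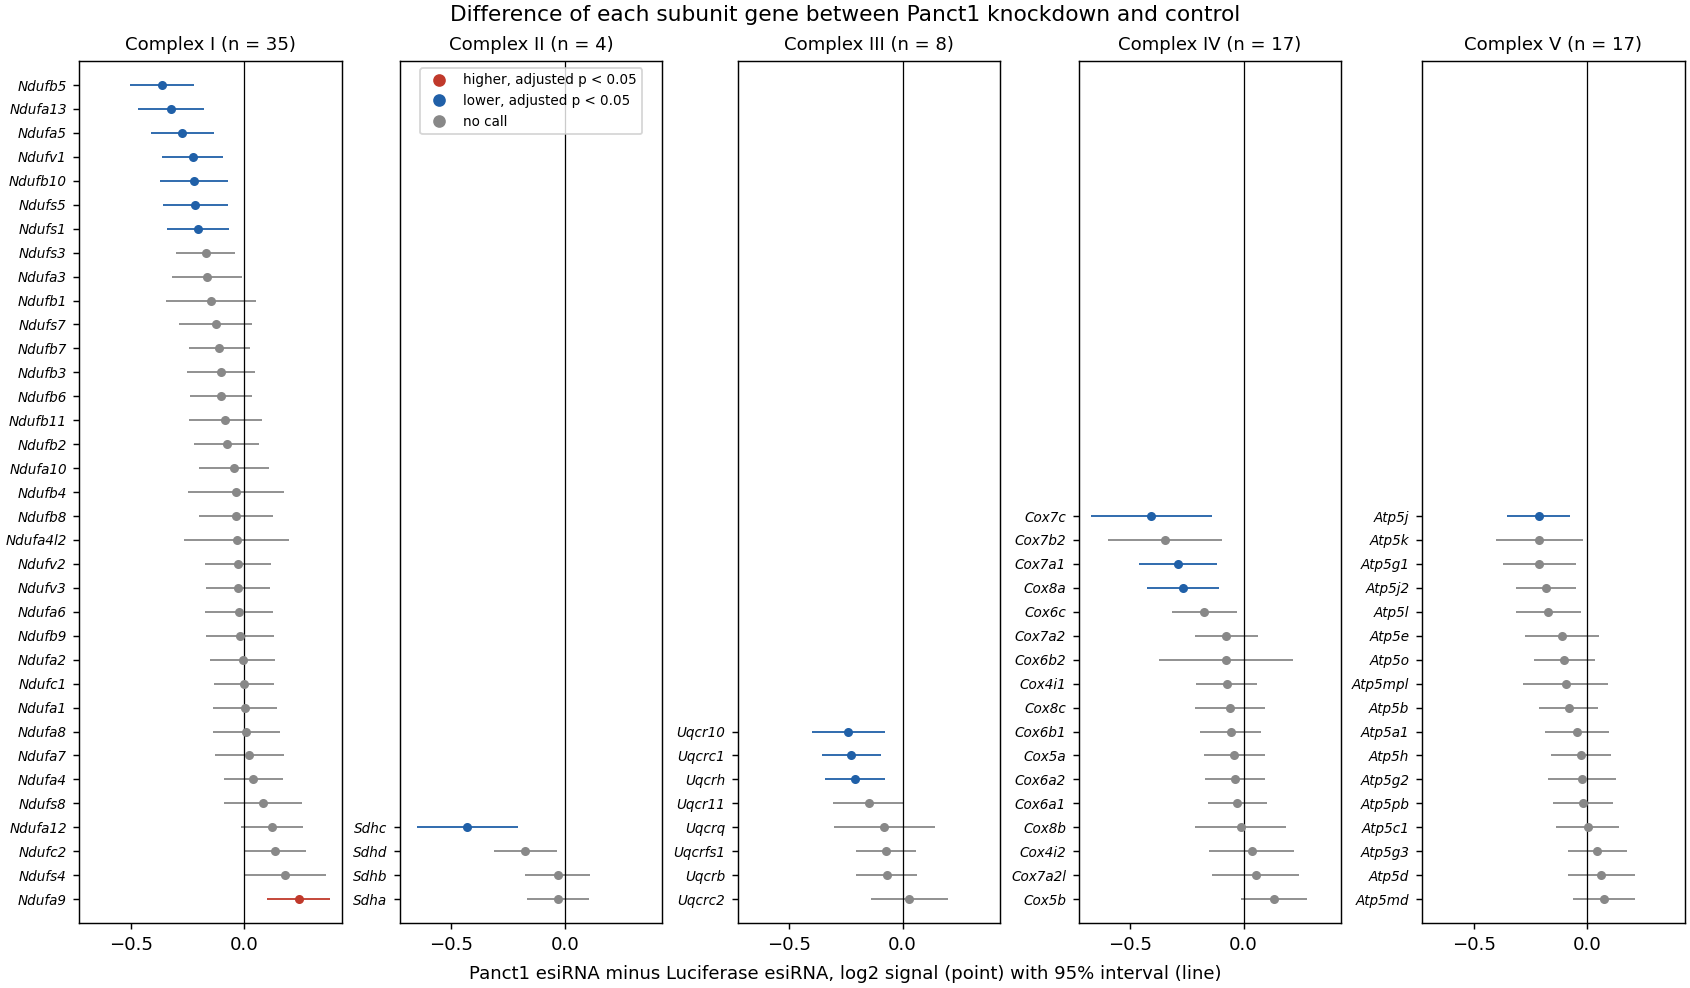
Difference between Panct1 esiRNA and Luciferase esiRNA for each of the 81 subunit genes, by complex, on the log2 scale, with points for the estimates and lines for 95% intervals of the limma fit (3 arrays per group). Blue points fell, the red point (Ndufa9) rose, and grey points did not pass; most points lie left of 0 and none reaches 0.5 in size.

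The 3 knockdown arrays did not shift alike. Each member was set against its mean in the control arrays, and the median over members was -0.10 on Panct1 replicate 1, -0.09 on replicate 2 and -0.03 on replicate 3. Of the 81 members, 66 lay below their control mean on replicate 1, 66 on replicate 2 and 47 on replicate 3. For complex I the medians were -0.10, -0.09 and 0.01, so replicate 3 lay on the other side of 0. Over all genes they were -0.02, -0.03 and 0.01. Control arrays lay within 0.02 of 0 for the members as a whole. The median difference of complex I, -0.04, became -0.11 without Panct1 replicate 3.

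**Figure D2:**
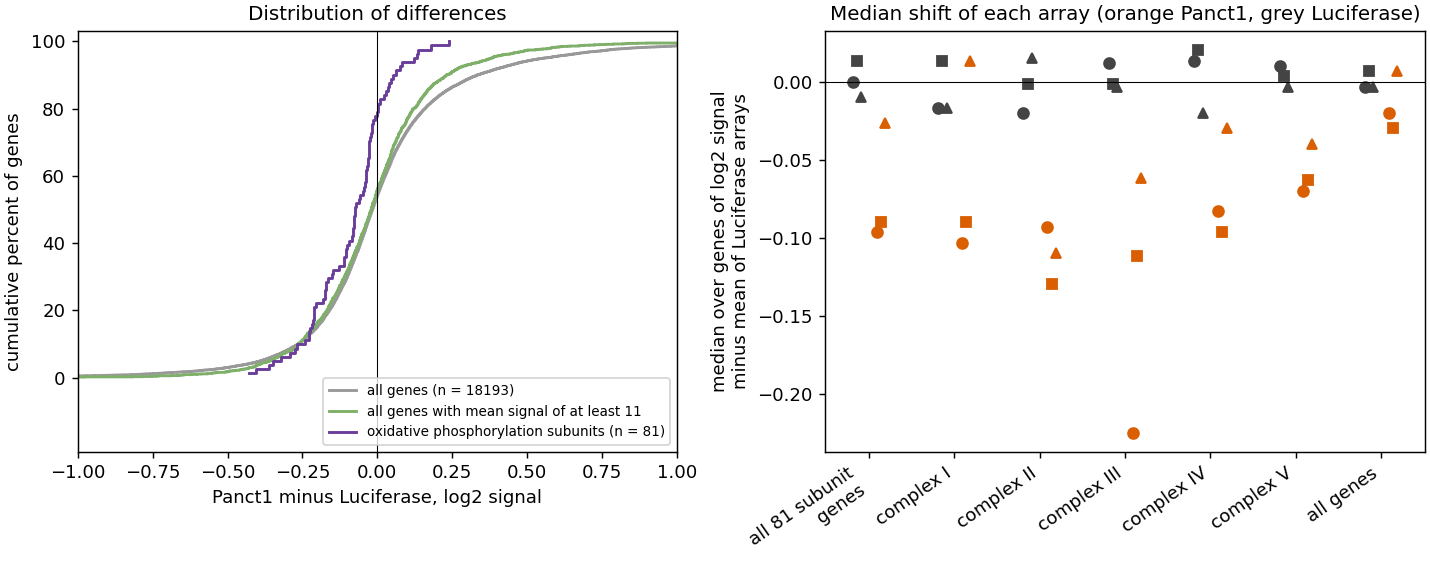
Left, cumulative percent of genes by log2 difference (Panct1 minus Luciferase) for all 18193 genes, for the 1788 bright genes and for the 81 subunit genes, the last of which reach 77.8% at values below 0. Right, median over genes of the log2 signal minus the control mean on each array (circle, square and triangle for replicates 1, 2 and 3), where Panct1 replicate 3 sits nearest to the controls for the members as a whole (-0.03).

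In complex I, which oxidises NADH, 7 of 35 members fell and Ndufa9 rose, with a median difference of -0.04. Ndufb5, a subunit of the membrane arm, read 12.90, 12.87 and 12.81 on the control arrays and 12.44, 12.53 and 12.52 on the knockdown arrays. The groups lay apart, and it fell by 0.36 (SE 0.06; limma adjusted p = 0.00307), the smallest p among the members. Its second probe set fell by 0.27 (limma adjusted p = 0.0199 over all probe sets). Ndufa13, also known as GRIM-19 and as a partner of STAT3, read 12.57, 12.56 and 12.59 in controls and 12.23, 12.19 and 12.33 in knockdown. It fell by 0.32 (SE 0.06; limma adjusted p = 0.00606), with every knockdown array below every control array. Ndufa5, an accessory subunit of the arm that reduces ubiquinone, read 11.41, 11.41 and 11.46 in controls against 11.10, 11.20 and 11.16, and fell by 0.27 (limma adjusted p = 0.0113).

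Of the catalytic core of complex I, the part that holds the flavin and the iron-sulphur clusters, 2 of 6 measured members fell and 0 rose. The share that fell was 33.3%, beside 11.3% of all genes. Ndufv1, which holds the flavin and binds NADH, read 12.23, 12.25 and 12.17 in controls and 12.00, 11.97 and 12.00 in knockdown. It fell by 0.23 (limma adjusted p = 0.0234), and its other probe sets were lower by nearly the same amounts, -0.25 and -0.26. Ndufs1, the largest iron-sulphur subunit, read 11.22, 11.21 and 11.24 against 10.98, 11.01 and 11.07, and fell by 0.20 (limma adjusted p = 0.0376). Ndufs3 differed by -0.17 with groups that lay apart, and Ndufs7, Ndufv2 and Ndufs8 by -0.13, -0.03 and 0.08, none of them past the threshold. Ndufv1 lost its call without Panct1 replicate 2 or 3 or without Luciferase replicate 1 or 2 (highest limma adjusted p over its settings 0.0898), and Ndufs1 without any array other than Panct1 replicate 3 (0.121).

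Ndufb10 and Ndufs5, both of the membrane arm on the side of the intermembrane space, were also lower. Ndufb10 read 11.72, 11.81 and 11.70 in controls and 11.50, 11.47 and 11.59 in knockdown, and fell by 0.22 (limma adjusted p = 0.0380). Ndufs5 read 11.21, 11.31 and 11.23 against 11.09, 11.01 and 11, and also fell by 0.22 (limma adjusted p = 0.0368). Neither gene has an overlap between its groups. Both calls were lost without any 1 of 5 arrays, the exception being Panct1 replicate 3 for Ndufb10 and Panct1 replicate 1 for Ndufs5 (highest limma adjusted p over their settings 0.140 and 0.125). Over the 11 Ndufb members the differences lay below 0 (median -0.10) but only Ndufb5 and Ndufb10 passed. They are 18.2% of these members, beside the 11.3% of all genes that fell. Ndufb4 stands among them through a dim probe set (-0.04), while brighter sets shared with its copies were higher in knockdown (0.18 and 0.15, without a call). The 13 Ndufa members were split, 7 below and 6 above 0.

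Ndufa9, an accessory subunit where the arms of complex I meet, was the single member that rose. It read 12.23, 12.28 and 12.23 in controls and 12.48, 12.44 and 12.54 in knockdown, a rise of 0.24 (SE 0.06; limma adjusted p = 0.0206). All its knockdown arrays lay above all control arrays, but the call was lost without Panct1 replicate 3 or Luciferase replicate 1 or 3 (highest limma adjusted p over its settings 0.0748). The next highest differences of complex I, which did not pass, were 0.18 for Ndufs4, 0.14 for Ndufc2 and 0.12 for Ndufa12. The brightest probe sets of the complex, for Ndufa7 and Ndufa1, differed by 0.02 and 0.00, with 95% intervals from -0.13 to 0.18 and from -0.14 to 0.14. Ndufa4, counted here by its symbol although its protein is now placed in complex IV, differed by 0.04.

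**Figure D3:**
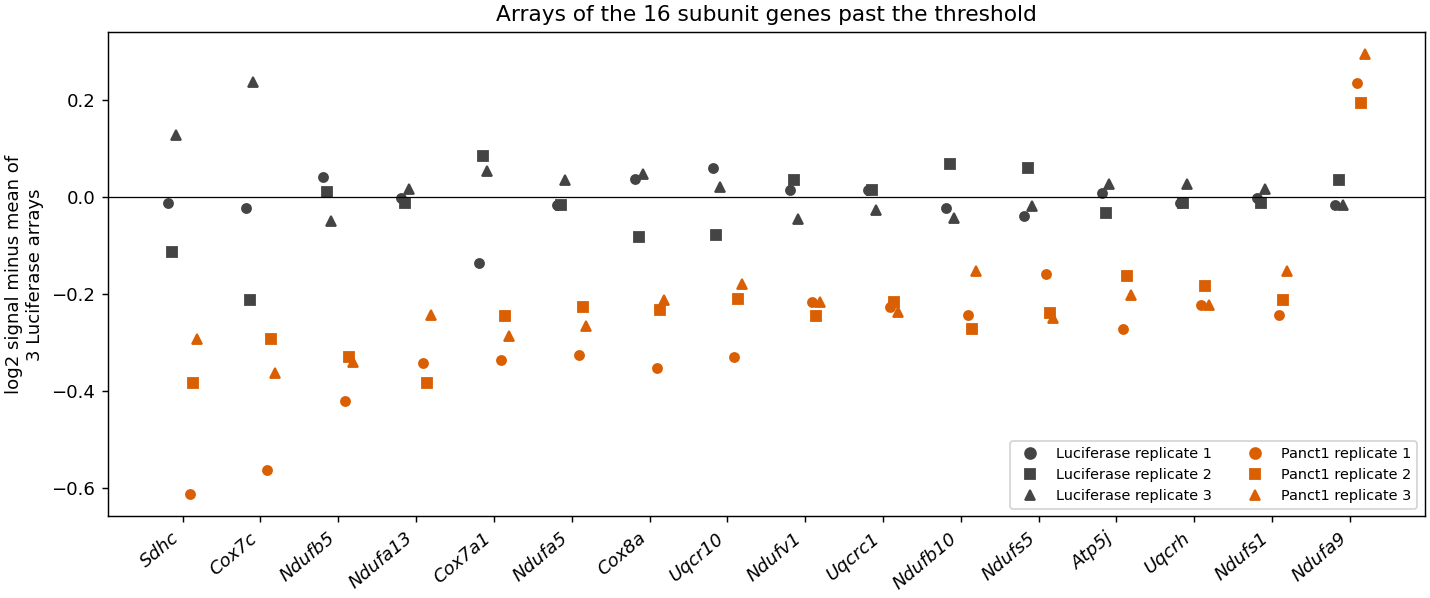
Log2 signal of each array minus the mean of the 3 Luciferase arrays for the 16 subunit genes past the threshold (grey, Luciferase; orange, Panct1; circle, square and triangle for replicates 1, 2 and 3). No gene has an overlap between the groups; the spread is widest for Sdhc and Cox7c, and Ndufa9 alone lies above the controls.

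All 16 members past the threshold had groups that did not overlap. Counting without a test, the 3 arrays of each group lay apart for 30 members in the lower direction (37.0%) and for 8 in the higher (9.88%). These shares were 19.6% and 18.7% over all genes. Among the 1788 genes with a mean signal of at least 11 they were 29.0% and 20.7%. Among the 69 bright members they were 39.1% and 11.6%.

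Complex II is succinate dehydrogenase, shared with the citric acid cycle, and 1 of its 4 subunits fell. Sdhc, a membrane anchor that helps to bind ubiquinone, read 10.89, 10.79 and 11.03 in controls and 10.29, 10.52 and 10.61 in knockdown. It fell by 0.43 (SE 0.10; limma adjusted p = 0.0122), the largest fall of any member, with its lowest value on Panct1 replicate 1. Its second probe set, of signal 9.42, differed by -0.12 (limma adjusted p = 0.388 over all probe sets), the widest gap (0.313) among members whose second probe set had a mean signal of at least 9. Sdhd, the other anchor, read 11.99, 12.06 and 12.00 against 11.89, 11.82 and 11.82 and did not pass (difference -0.17, limma adjusted p = 0.0719). The soluble catalytic subunits Sdha and Sdhb both differed by -0.03, with intervals from -0.17 to 0.11.

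Complex III, which passes electrons from ubiquinol to cytochrome c, had 3 of 8 members lower and 0 higher, with a median of -0.12. Of all genes, 11.3% fell. The groups of 6 members lay apart, all in the lower direction. That held for 19.6% of all genes and for 29.0% of those with a mean signal of at least 11. Uqcrc1, a core protein on the matrix side, read 13.10, 13.10 and 13.06 in controls and 12.86, 12.87 and 12.85 in knockdown, and fell by 0.23 (limma adjusted p = 0.0205). Uqcrh, the hinge protein near cytochrome c1, read 13.11, 13.11 and 13.15 against 12.90, 12.94 and 12.90, and fell by 0.21 (limma adjusted p = 0.0295). Uqcr10, a small subunit, read 12.86, 12.72 and 12.82 against 12.47, 12.59 and 12.62, and fell by 0.24 (limma adjusted p = 0.0374). The arrays of a group lay closer together for Uqcrc1 and Uqcrh than for Uqcr10, whose other probe sets differed by -0.09 and 0.07. Uqcrh lost its call without any 1 of the 6 arrays, Uqcrc1 without Panct1 replicate 2 or 3 or Luciferase replicate 1 or 2, and Uqcr10 without Panct1 replicate 1 or 2 or Luciferase replicate 1 or 3 (highest limma adjusted p over their settings 0.107, 0.0811 and 0.430). With the mean of its probe sets Uqcr10 differed by -0.09, which is where its p was highest. The Rieske iron-sulphur protein gene Uqcrfs1 differed by -0.07 and Uqcrc2, the other core protein, by 0.03. Uqcrb has the brightest set of the complex, with 14.30, 14.25 and 14.27 in controls and 14.22, 14.16 and 14.23 in knockdown, and did not pass (difference -0.07). Its second set, at a signal of 11.99, fell by 0.25 (limma adjusted p = 0.0461 over all probe sets).

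In complex IV, cytochrome c oxidase, 3 of 17 members fell (17.6%, beside 11.3% of all genes) and 0 rose, with a median of -0.06. Cox8a, the widely expressed form of the smallest subunit, read 13.09, 12.97 and 13.10 in controls and 12.70, 12.82 and 12.84 in knockdown. It fell by 0.27 (limma adjusted p = 0.0234), lowest on Panct1 replicate 1. It lost its call without Panct1 replicate 1 or 2 or Luciferase replicate 1 or 3, and with the mean of its probe sets, where it differed by -0.13 (limma adjusted p = 0.150, the highest over its settings). That mean includes a further dim set, of signal 6.03, at 0.09. Cox7c read 7.59, 7.40 and 7.85 against 7.05, 7.32 and 7.25, and fell by 0.41 (limma adjusted p = 0.0356). This probe set is the brighter of the pair for Cox7c with a single symbol. The other, at a signal of 6.12, differed by -0.57 and did not pass (limma adjusted p = 0.0779 over all probe sets). With that adjustment the brighter set did not pass either (limma adjusted p = 0.0570). The call for Cox7c was also lost without Panct1 replicate 1 or 3 or Luciferase replicate 1 or 3, with a difference of -0.57 to -0.29 over its settings.

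Several subunits of complex IV exist in forms limited to certain tissues, and 8 such members (Ndufa4l2 of the Nduf family included) were looked at as a group. Cox7a1, the form of heart and skeletal muscle, was the only member of this group to pass (12.5%, beside 11.3% of all genes that fell). It read 8.54, 8.76 and 8.73 in controls and 8.34, 8.43 and 8.39 in knockdown, and fell by 0.29 (limma adjusted p = 0.0226), while the widely expressed Cox7a2 differed by -0.08. Leaving out any array other than Luciferase replicate 1 ended the call for Cox7a1 (highest limma adjusted p over its settings 0.0731). Cox7b2 read 5.63, 5.24 and 5.48 against 4.95, 5.24 and 5.12, with groups that meet at 5.24, and missed the threshold at -0.35 (limma adjusted p = 0.0517). The other 6 forms, Cox4i2, Cox6a2, Cox6b2, Cox8b, Cox8c and Ndufa4l2, differed by -0.08 to 0.04 with overlapping groups. Among the widely expressed forms, Cox6a1 read 14.21, 14.23 and 14.19 in controls and 14.19, 14.18 and 14.18 in knockdown. Cox4i1 read 13.98, 14.02 and 13.96 against 13.95, 13.89 and 13.90. These brightest sets of the complex differed by -0.03 and -0.07 and did not pass, and Cox5b had the highest difference (0.13), also without a call. Cox7a2l, which helps to join complexes III and IV into supercomplexes, differed by 0.05.

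ATP synthase had 1 of 17 members lower (5.88%, beside 11.3% of all genes) and 0 higher, with a median of -0.08. That member was Atp5j, coupling factor 6 of the peripheral stalk, which holds the catalytic head in place. It read 13.27, 13.23 and 13.29 in controls and 12.99, 13.10 and 13.06 in knockdown, and fell by 0.21 (limma adjusted p = 0.0357), a call lost without any 1 of the 6 arrays (highest limma adjusted p over its settings 0.110). The other stalk genes Atp5o, Atp5h and Atp5pb differed by -0.10, -0.03 and -0.02. The 5 genes of the catalytic F1 head differed by -0.11 to 0.06 and none passed. Atp5b, whose protein carries the catalytic sites, read 14.05, 14.08 and 14.05 in controls and 13.99, 13.97 and 13.98 in knockdown, lower on every array by a small amount (difference -0.08, limma adjusted p = 0.376, interval from -0.21 to 0.05). Of the genes for the rotating c ring, which encode the same mature protein, Atp5g1 read 13.49, 13.60 and 13.46 against 13.39, 13.23 and 13.30 (difference -0.21, limma adjusted p = 0.0631). Atp5g3 read 13.79, 13.76 and 13.77 against 13.82, 13.83 and 13.81, which is higher on every array (difference 0.05, limma adjusted p = 0.625). Atp5g2 differed by -0.02. The membrane accessory genes Atp5k, Atp5j2 and Atp5l differed by -0.21, -0.18 and -0.17, Atp5mpl by -0.09 and Atp5md by 0.08, and none passed.

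For the 65 members with no call the data set bounds. The 95% interval lay within 0.2 of 0 for 23 of them, within 0.3 for 52 and within 0.4 for 63, and the smallest difference of a called member was 0.203. A missing call therefore does not show that a gene was the same in both groups.

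Probe sets of the same gene mostly differed alike. Of the 81 members 48 had several probe sets, and for 38 a second one had a mean signal of at least 9. The differences of the brightest and the second set lay within 0.1 of each other for 34 of these 38 genes, with a median gap of 0.0317. Of the 15 members that fell, 7 had such a second set and it lay below 0 in all 7. Over all 164 probe sets of the members, 16 fell (9.76%) and 1 rose (0.61%) by limma adjusted over all probe sets, beside 6.76% and 7.82% of all probe sets. The brightest set may also read related sequences for 18 members, 7 with a name ending in x_at and 11 in s_at, and processed pseudogenes of subunit genes could add to a signal, which was not tested. As for Uqcrb, the sets of Ndufb7 fell on different sides of the threshold: the brightest differed by -0.11 without a call and the second fell by 0.24 (limma adjusted p = 0.0333 over all probe sets).

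**Figure D4:**
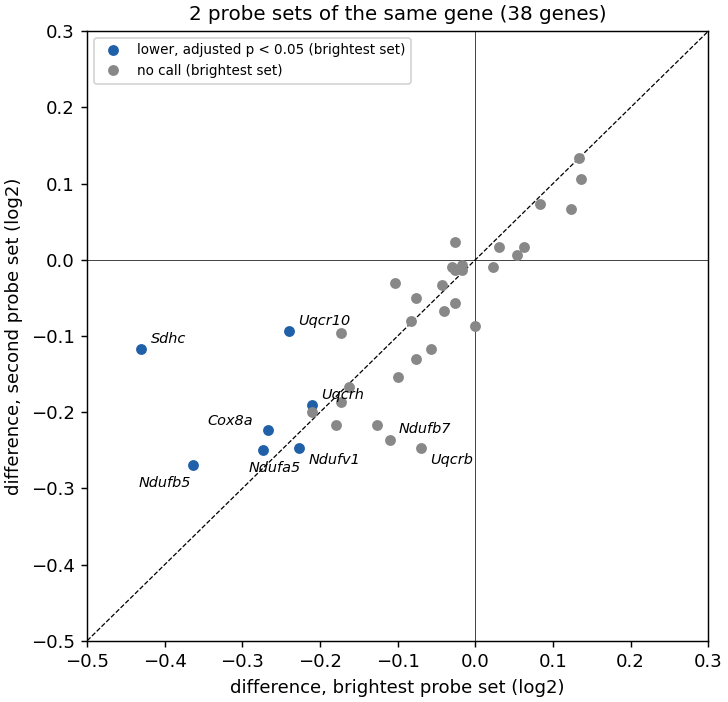
Log2 difference (Panct1 minus Luciferase) of the brightest probe set (x axis) and of the second probe set with a mean signal of at least 9 (y axis) for 38 subunit genes; the dashed line marks equal values. Most points lie along the line; Sdhc, Uqcr10, Uqcrb and Ndufb7 lie farthest from it.

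Promoters of subunit genes are known for sites of the factors NRF1 and GABP, which is an ETS factor, and for YY1 and ERR sites. To show what lies before the members that changed, RefSeq sequences of build GRCm38.p6 were searched on both strands for letters of 6 motifs, given with their counts below, each counted on its own even where matches overlap. The table held 71 promoters, from 250 bases before to 50 bases after the start, for 66 members. The last 120 bases before the start are shown for Ndufb5 and Ndufa5, which fell under every setting run, for Ndufs5 and Uqcrh, which fell and hold a match there, and for Ndufa9, which rose. For Ndufa5, which has more than 1 start in the table, the most upstream start was used. Capitals mark matches to the NRF1, ETS, YY1 or ERR letters.
Ndufb5 (chr3:32736943-32737062, plus strand): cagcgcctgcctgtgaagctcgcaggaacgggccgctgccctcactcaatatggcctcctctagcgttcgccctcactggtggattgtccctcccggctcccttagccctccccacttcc
Ndufa5 (chr6:24527691-24527810, minus strand): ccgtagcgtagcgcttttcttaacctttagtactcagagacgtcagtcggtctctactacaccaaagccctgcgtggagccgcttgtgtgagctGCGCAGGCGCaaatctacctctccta
Ndufs5 (chr4:123718187-123718306, minus strand): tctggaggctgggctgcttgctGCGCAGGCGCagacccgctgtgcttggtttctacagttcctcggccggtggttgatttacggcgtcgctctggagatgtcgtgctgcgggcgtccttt
Uqcrh (chr4:116075071-116075190, minus strand): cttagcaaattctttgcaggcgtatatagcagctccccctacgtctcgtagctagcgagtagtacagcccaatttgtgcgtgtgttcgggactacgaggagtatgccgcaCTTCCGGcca
Ndufa9 (chr6:126849145-126849264, minus strand): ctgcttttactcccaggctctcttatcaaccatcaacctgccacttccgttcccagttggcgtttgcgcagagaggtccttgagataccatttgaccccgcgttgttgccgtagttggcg

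Ndufa5 and Ndufs5 hold the NRF1 letters, Uqcrh the ETS letters on the opposite strand, and the stretches of Ndufb5 and Ndufa9 none of the 4 patterns. Beyond its stretch, Ndufa9 holds the YY1 letters after the start. Atp5j, which fell and is not shown, holds ETS and YY1 letters before the more downstream of its starts. The NRF1 motif searched was GCGCA, any base, then GCGC, and over the full windows it was in 16 of 71 member promoters (22.5%), beside 7.43% of the 18109 promoters of genes tested. The ETS motif CCGGAAG was in 17 of 71 (23.9%), beside 2355 of those 18109. The YY1 motif AAGATGGC was in 12.7% of member promoters and in 3.38% of those of genes tested. For the ERR motif TCAAGGTCA the shares were 2.82% and 0.342%. The SP motif GGGCGG was in 40.8% of member promoters, which is less than the 52.3% over genes tested, and the TATA motif TATAAA in 12.7%, beside 9.77%. The median GC content was 58.3% in both sets. Among the members, NRF1 letters were in 4 of 15 promoters of members that fell and in 12 of 56 of the others, ETS letters in 3 and 14, and YY1 letters in 1 and 8. The 4 promoters with NRF1 letters belong to Ndufa5, Ndufs5 and Uqcrc1. Both windows of Ndufa5 overlap and hold the same site, which was thus counted in each. A match is a description of the letters, not a bound site.

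Genes that regulate respiratory genes were lower where they passed: of 14 measured, 5 fell (35.7%) and 0 rose, with a median difference of -0.15, beside the 11.3% of all genes that fell. Gabpb1, a subunit of GABP, read 9.14, 9.34 and 9.15 in controls and 8.48, 8.64 and 8.70 in knockdown, and fell by 0.60 (limma adjusted p = 0.00103), although its second probe set, at a signal of 7.98, differed by 0.01. Nrf1 read 9.57, 9.59 and 9.59 against 9.26, 9.38 and 9.38 and fell by 0.24 (limma adjusted p = 0.0222), and Pprc1, a coactivator of the PGC-1 family, read 11.03, 10.95 and 11.15 against 10.83, 10.79 and 10.69 and fell by 0.27 (limma adjusted p = 0.0275). Nrf1 and Pprc1 have no overlap between groups. The call for Nrf1 was lost with the mean of its probe sets (difference -0.10, limma adjusted p = 0.279, range over its settings 0.0115 to 0.279) and without any array other than Panct1 replicate 3. That for Pprc1 was lost without Panct1 replicate 2 or 3 or Luciferase replicate 1 or 3. Esrrb and Myc, which in ES cells have many other targets, fell by 0.50 and by 0.57. Esrrb was also counted above among the ES cell markers that fell. Gabpa, the DNA-binding partner of Gabpb1, differed by -0.17, Yy1 by -0.12 and Esrra by 0.12. Ppargc1a had means of 4.16 and 4.10, below the lower quartile of the arrays. Of 10 genes that keep and transcribe mitochondrial DNA, 1 fell and 0 rose, beside the 11.3% of all genes that fell. It was Polrmt, the mitochondrial RNA polymerase, which fell by 0.27. Polrmt lost its call without any array other than Panct1 replicate 1 and when adjusted over all probe sets (highest limma adjusted p over its settings 0.106). Tfam, which packs that DNA, differed by -0.11.

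The lists of assembly factors, which help to build the complexes, had calls in both directions: of 46 measured genes, 7 rose and 6 fell, with a median difference of -0.04. This share, 28.3%, is close to the 24.2% of all genes that passed. The complex I list also holds Ndufab1, the acyl carrier protein, which is itself a subunit of that complex and differed by -0.05 without a call. Among the 15 of complex I, Ecsit read 10.43, 10.60 and 10.39 in controls and 9.73, 9.63 and 9.67 in knockdown, and fell by 0.80 (limma adjusted p = 1.19e-04). The protein also serves in innate immune signalling. Ndufaf6 read 10.12, 10.26 and 10.11 against 10.53, 10.73 and 10.82 and rose by 0.53 (limma adjusted p = 0.00247). Timmdc1, a membrane arm factor, read 8.91, 8.85 and 8.94 against 9.27, 9.44 and 9.45 and rose by 0.49 (limma adjusted p = 0.00134). The groups of all 3 lay well apart. Ndufaf4 rose by 0.39 and Nubpl, which delivers iron-sulphur clusters, by 0.33, and Tmem126b fell by 0.43. For complex II, Sdhaf4 read 10.28, 10.35 and 10.24 against 10.73, 10.72 and 10.80 and rose by 0.46 (limma adjusted p = 9.39e-04), while Sdhc was lower. For complex III, Uqcc3 fell by 0.32. For complex IV, Coa3 rose by 0.31 and Coa5 by 0.20, while Coa7 fell by 0.27, Surf1 fell by 0.26 and Cox20 fell by 0.23. Ecsit, Ndufaf6, Timmdc1, Ndufaf4, Sdhaf4, Uqcc3 and Coa3 kept their calls without any 1 array, as did Coa7, while Nubpl, Tmem126b, Coa5, Surf1 and Cox20 lost theirs in at least 1 such setting. With the mean of its probe sets Coa7 differed by -0.15 and lost its call (limma adjusted p = 0.295), and Coa5 lost its call too. None of the 4 genes for assembly or inhibition of ATP synthase passed, with Atpif1, its inhibitor, at -0.18 and Tmem70 at 0.22.

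**Figure D5:**
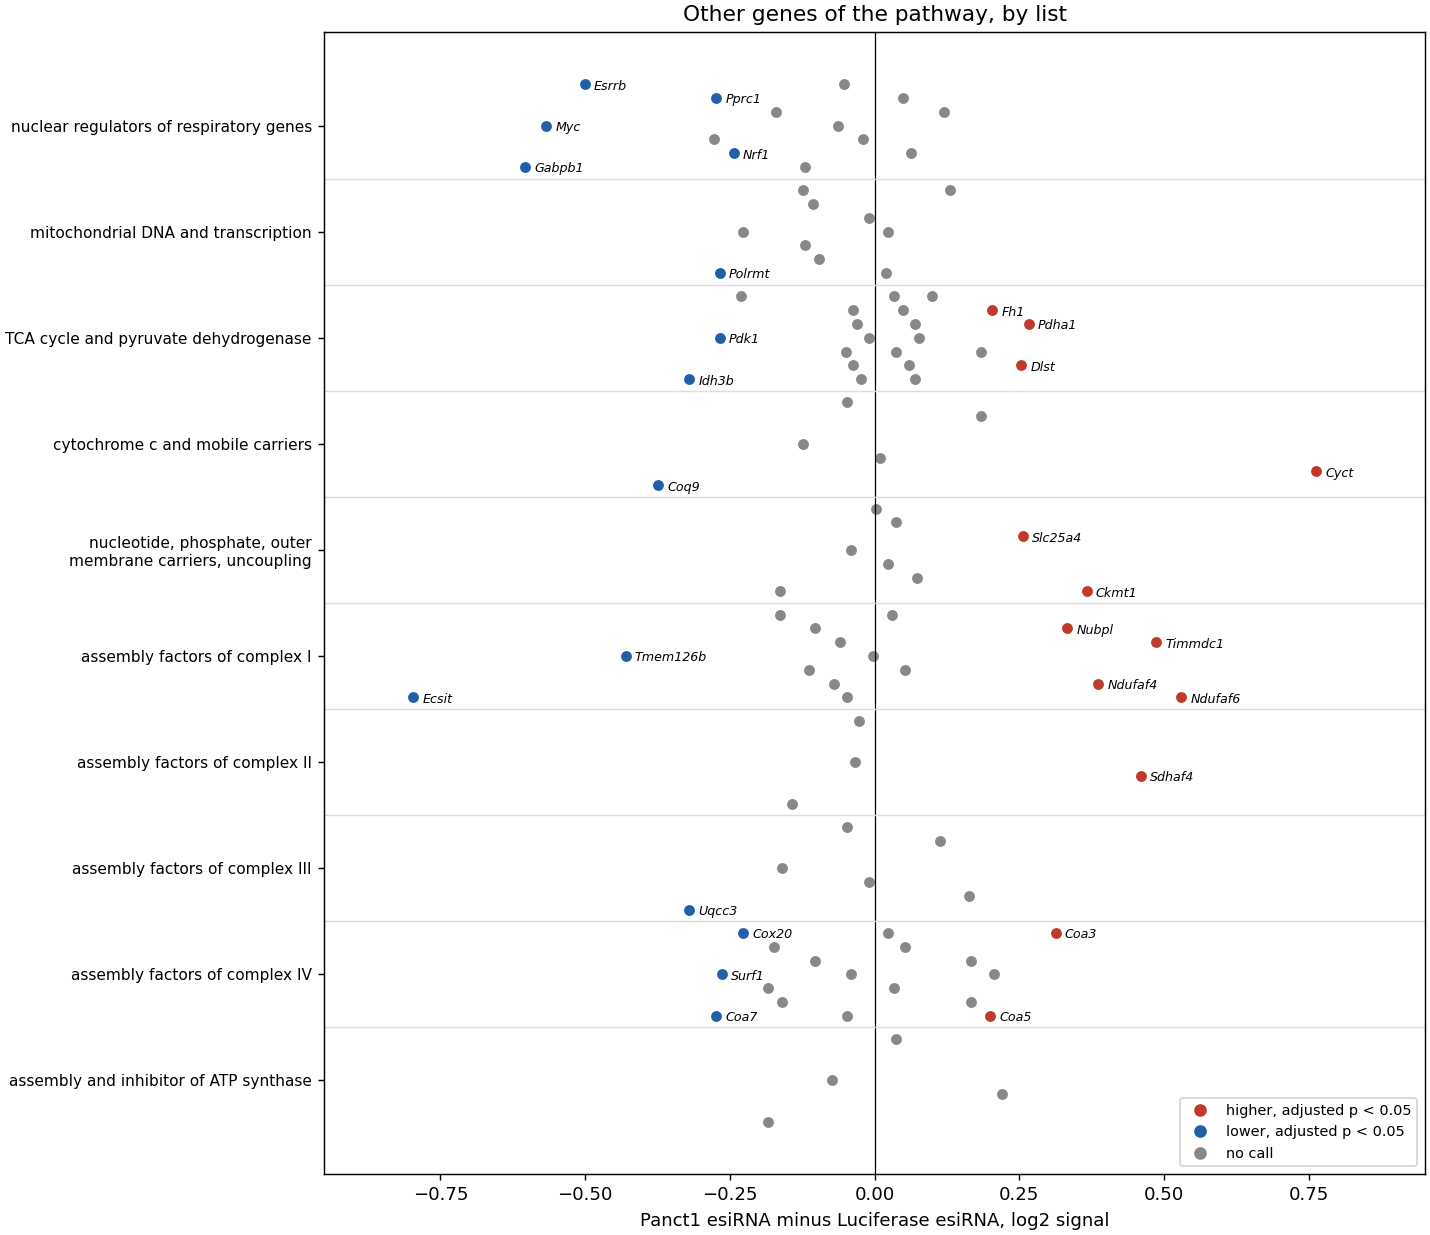
Log2 difference (Panct1 minus Luciferase) of the other genes of the pathway, by list; vertical position within a list only separates the points. Genes past the threshold are named: regulators that passed lie left of 0, while assembly factors that passed lie on both sides, from Ecsit (-0.80) to Ndufaf6 (0.53).

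The citric acid cycle and pyruvate dehydrogenase, which feed the chain, had 3 of 21 measured genes higher and 2 lower, a share (23.8%) near the 24.2% of all genes. Pdha1, the catalytic subunit of pyruvate dehydrogenase, read 11.82, 11.70 and 11.78 in controls and 12.02, 12.07 and 12.01 in knockdown, and rose by 0.27 (limma adjusted p = 0.0145), and its second probe set rose by 0.36. Pdk1, a kinase that switches that enzyme off, fell by 0.27. Idh3b, a subunit of isocitrate dehydrogenase, read 12.17, 12.16 and 12.10 against 11.80, 11.79 and 11.88 and fell by 0.32 (limma adjusted p = 0.00545), with its second probe set lower by 0.33. Dlst and Fh1 rose by 0.25 and 0.20. The median difference of the 21 genes was 0.04. Idh3b kept its call under all 15 alternatives. Pdha1 lost it without Panct1 replicate 2, Pdk1 without Panct1 replicate 1 or 3 or Luciferase replicate 1 or 3, and Fh1 without any array other than Panct1 replicate 1 and also with median centring. Dlst lost it without Panct1 replicate 2 or 3 or Luciferase replicate 1, and with the mean of its probe sets, where it differed by 0.11 (limma adjusted p = 0.270). The calls for Pdha1, Pdk1, Fh1 and Dlst were also lost with the replicate number as a block.

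Of the mobile carriers, Cycs, the somatic cytochrome c, differed by 0.18 without passing (limma adjusted p = 0.0581) and Cyct, its testis form, read 7.40, 7.17 and 7.44 in controls and 7.81, 8.21 and 8.28 in knockdown, a rise of 0.76 (limma adjusted p = 0.00261). The controls and knockdown arrays of Cyct did not meet. Coq9, needed to make ubiquinone, fell by 0.37, but differed by -0.18 without a call with the mean of its probe sets (limma adjusted p = 0.136). Cyc1, cytochrome c1 of complex III, which the symbols do not place among the members, differed by -0.12. Slc25a4, an ADP/ATP exchanger of the inner membrane, read 13.05, 13.11 and 12.95 against 13.28, 13.29 and 13.31 and rose by 0.26 (limma adjusted p = 0.0204; lost without Panct1 replicate 2 or 3 or Luciferase replicate 1 or 3), while the related exchanger Slc25a5 differed by -0.04. Ckmt1, mitochondrial creatine kinase, rose by 0.37, a call lost without Panct1 replicate 1 or Luciferase replicate 1 and with the mean of its probe sets, and the channels Vdac1, Vdac2 and Vdac3 differed by 0.07, 0.02 and -0.16 without a call.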

How the data were processed

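RNA of 3 Panct1 esiRNA and 3 Luciferase esiRNA samples was measured on Affymetrix Mouse430 version 2 arrays. The deposited values are log2 signals with 2 decimals, 1 per probe set and array. GCOS 1.4 and RMA are named in the submitters' processing notes; which arrays were normalised together is not given in the sources used here. RMA corrects background, quantile-normalises and summarises probes, which can compress differences. Values were used with no further scaling.

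Of 45101 probe sets, 64 controls were left out, leaving 45037, of which 34945 had 1 symbol. Of these, 34741 symbols were looked up by gene ID in RefSeq (GRCm38.p6). Each gene was represented by its brightest probe set, judged by the mean of all 6 arrays. Groups and replicate numbers came from the titles, and no pair of arrays shared more than 3.20% of values. limma 3.58.1 (lmFit, eBayes, R 4.3.3) tested the group over all 18193 genes, two-sided, with Benjamini-Hochberg adjustment and a threshold of 0.05; the script was tested on simulated data. Intervals are 95% intervals from that fit. The main fit did not use replicate numbers to pair the samples.

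Members, 14 gene lists and motifs were chosen with earlier results of these data known. Array values are given mainly for members past the threshold, the 2 brightest of each complex and tissue-limited forms where they bear on a result. Of the lists, they are given for some of the genes past the threshold. Ndufa1, Ndufa7 and Sdhb, among the 2 brightest of their complexes, and the remaining called genes of the lists appear without array values. Other genes and probe sets named were picked with their values in view. The alternatives tried were a fit blocked on replicate number, centring on array medians, a further quantile normalisation, robust variance with a trend on intensity, array weights, platform symbols, removal of dim or cross-hybridising probe sets, the mean of probe sets, adjustment over all probe sets and leaving out each array.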

Additional observations from a re-analysis of the deposited data

How the results depend on the processing

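Over 15 alternatives 4 of the 16 called members, Ndufb5, Ndufa13, Ndufa5 and Sdhc, passed in each setting that holds their probe set, and 12 lost their call in at least 1 setting, none with a change of direction. The count of members that fell, 15, was 5 to 8 when an array was left out, which also leaves fewer samples, and 8 when adjusted over all probe sets. Without Luciferase replicate 1 the share that fell was below that of all genes (5 of 81 beside 1389 of 18193). So it was without Panct1 replicate 2 (6 beside 1371) and without Luciferase replicate 3 (6 beside 1539). Without each of the other arrays 8 members fell, a share slightly above that of all genes. With an intensity trend and robust variance 25 members and 2236 of all genes fell, and 4 members rose. The count of members that rose, 1, ranged from 0 to 1 without 1 array, and Ndufa9 lost its call without Panct1 replicate 3 or Luciferase replicate 1 or 3. With the replicate number as a block 6 members fell and 0 rose, beside 1488 and 2008 of all genes. The members that lost their call there were Atp5j, Cox8a, Ndufa9, Ndufb10, Ndufs1, Ndufs5, Ndufv1, Uqcr10, Uqcrc1 and Uqcrh. Of the other pathway genes, so did Pdha1, Pdk1, Dlst, Fh1, Slc25a4, Nrf1, Pprc1, Polrmt, Coa5, Cox20, Surf1 and Tmem126b. The deviations of samples of the same number correlated at -0.19, -0.26 and -0.10, and those of different numbers at -0.11 to 0.28. With 3 arrays per group, this cannot show whether samples of the same number belong together. Over all genes, 1744 to 2203 rose and 1371 to 1783 fell without 1 array, where 2355 and 2049 did with all 6.

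The median of complex V, -0.08, was -0.0511 after repeated quantile normalisation, and that of complex II, -0.10, was -0.0825 with the mean of probe sets. Without 1 array the medians ranged from -0.107 (without Panct1 replicate 3) to -0.025 in complex I, from -0.12 to -0.0883 in complex II, from -0.17 to -0.09 in complex III, from -0.08 to -0.05 in complex IV and from -0.08 to -0.0583 in complex V. The cause of these moves was not tested. Of 43 other named genes with a call, 20 lost it in at least 1 setting. Platform symbols gave the same values for the members and the named genes. The number of arrays limits the precision.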

Other observations

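Some subunit genes share their probe sets with a near-identical copy and so stand outside the members. They were chosen after their values were seen. Both probe sets for Ndufb4 and its copies Ndufb4b and Ndufb4c were higher on every knockdown array, at 12.35, 12.40 and 12.41 against 12.25, 12.15 and 12.22 for the brighter, a difference of 0.18 that did not pass (limma adjusted p = 0.110 over all probe sets), and 0.15 for the other. The set for Ndufs6 and Ndufs6b, an accessory gene of the NADH-oxidising module, read 12.39, 12.44 and 12.43 in controls and 12.23, 12.22 and 12.24 in knockdown, with groups that lay apart (difference -0.19, limma adjusted p = 0.0770). The brighter set for Ndufa11 and Ndufa11b differed by -0.12. The set for Ndufs5 and its pseudogene differed by -0.19 (limma adjusted p = 0.110), beside the fall of 0.22 in the set for Ndufs5 alone. The set with a single symbol that stands for Ndufb4 among the members is dim (4.58 to 4.87 over the 6 arrays), and its difference of -0.04 has the opposite sign to the shared sets.

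Another dim set, 1 of 4 for Ndufs4, an accessory subunit of complex I, lay at a signal of 5.47 and differed by -0.37 (limma adjusted p = 0.00679 over all probe sets), while the brightest set for Ndufs4 was at 0.18 without a call.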
